A study of Mus musculus with 6 samples.

Results

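The intergenic circular RNAs of the mouse prefrontal cortex are the 614 entries, of 17369 in the circular RNA table, to which the table gives the class intergenic. The other classes hold 15118 exonic and 1637 intronic entries. Membership was read from the table's class column alone, and no measured value entered it. The samples were prefrontal cortex from male C57BL/6 mice, 30 weeks of age when sampled and 5 weeks of age when the experiment began. The control group (n = 3) received water by gavage (0 mg/kg) and the PS_high group (n = 3) received polystyrene nanoparticles (PS NPs) at 50 mg/kg of body weight, once a day for 6 months in both cases. All animals were of the same sex and strain, whole tissue was used, and the labels list separate samples without saying that each came from a separate animal. The p-values therefore measure the spread between these samples, which may be technical.

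A circular RNA (circRNA) forms when the splicing machinery joins a downstream splice donor to an upstream splice acceptor, which leaves a covalently closed ring without a cap or a poly(A) tail. Rings resist exonucleases and are abundant in brain. They are recognised in sequencing by reads that cross the back-splice junction, whose order is reversed relative to the genome. Most contain exons of protein-coding genes, a few are lariat introns, and a caller writes intergenic where it finds no gene model for the junction, so that the class depends on the annotation it was given. Long non-coding host transcripts are one place where such junctions are found. Snhg14, the long imprinted transcript that runs antisense to the ubiquitin ligase gene Ube3a and carries the small nucleolar RNA (snoRNA) clusters of the Prader-Willi region, is such a transcript.

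The sequence at the edge of a circle shows whether it abuts splice signals, and it is shown here for the circles whose edge falls in a RefSeq promoter window (GRCm38.p6). Each run is 40 bases long and is written 5′ to 3′ on the strand of the circle. For the first 5 circles, 10 bases outside the circle come first and 30 bases inside follow, and the capitals mark the last 2 bases outside. For circRNA4376 the order is reversed, 30 bases inside and then 10 outside, and the capitals mark the first 2 bases outside.
circRNA4262: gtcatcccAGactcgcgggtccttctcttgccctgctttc
circRNA4284: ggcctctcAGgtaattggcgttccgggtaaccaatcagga
circRNA4439: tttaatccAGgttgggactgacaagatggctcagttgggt
circRNA13875: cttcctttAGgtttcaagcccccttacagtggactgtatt
circRNA7393: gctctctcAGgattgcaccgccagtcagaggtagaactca
circRNA4376: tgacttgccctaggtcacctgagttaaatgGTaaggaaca
These circles begin on chromosomes 13 (minus strand, position 64248499), 19 (minus, 4794009), X (minus, 105339662), 2 (plus, 61905375) and 13 (plus, 36207627), and circRNA4376 ends on chromosome 7 (minus, 59678859). The dinucleotide AG, the acceptor signal, stood directly before the first base at 12 of 12 distinct positions that could be read. The donor signal GT stood directly after the last base at 1 of 1. Over all 32851 windows, AG made up 7.69% and GT 4.98% of dinucleotides on the gene's strand. Whether the caller required these signals is not stated in the sources used here. If it did, both counts were fixed in advance, so they are given as description only. The runs show single edges only, and the full sequences of the circles are not used here.

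Most of these circles did not lie outside known genes. Of the 614, 570 (92.8%) overlapped a RefSeq gene span on either strand and 476 (77.5%) lay wholly within one. With strand again ignored, 325 lay within a long non-coding RNA gene and no protein-coding one, and 150 lay within a protein-coding gene. A circle in these RefSeq counts can therefore be antisense to the gene. An annotated linear transcript on the same strand overlapped 498, and 194 lay inside one. Only 40 circles (6.51%) overlapped neither a RefSeq gene nor an annotated transcript of the linear table, and 22 of these overlapped no assembled transcript of that table either. The label therefore describes how the table classed the junction, and the term intergenic is used below in that sense alone.

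The circles were concentrated on chromosome 7, which held 316 of 614 (51.5%) against 4.32% of the exonic and intronic circRNAs. Snhg14 accounted for 274 of them, all on the minus strand, as is Snhg14 itself. A further 26 lay between Snhg14 and Ndn, an imprinted gene of the same region, and these were also all on the minus strand. Elsewhere in the genome the strands were closer to even, with 178 circles on minus and 136 on plus. The 476 circles inside RefSeq genes of either strand fell in 128 genes, of which 84 held a single circle.

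**Figure D1:**
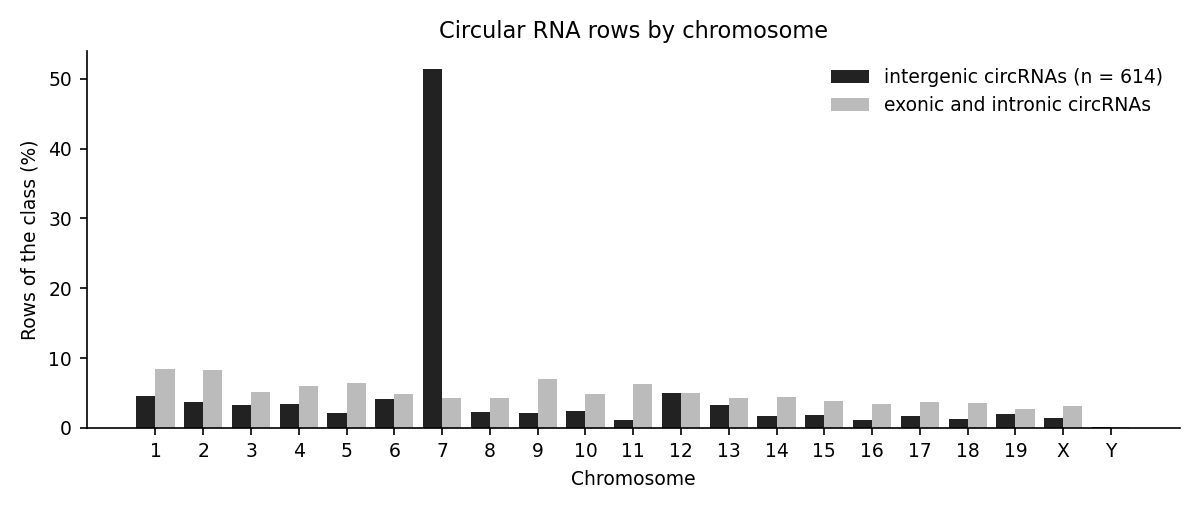
Percent of circRNAs on each chromosome (x axis) for the intergenic class (black, 614 entries) and for the exonic and intronic classes together (grey). Chromosome 7 holds 51.5% of the intergenic class and 4.32% of the others.

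Intergenic circles had a longer median span than the other classes, but not the longest spans. Their median span was 31968 bases, from 141 to 197768. It was 13225.5 bases for exonic circRNAs, from 105 to 1307200, and 1018 bases for intronic ones, from 112 to 196236. Whether the classes were called under the same limit on span is not stated in the sources used here. Every one was listed with 1 exon, so the span is the distance between the back-splice ends and not the length of the ring. The median depended on the region, and was 14906 bases without the circles from Snhg14 to Ndn. It was 22438 bases among circles with reads in at least 3 libraries. No median of the other classes was taken over the same subsets. A name of the mmu_circ_ type was carried by 62 of them (10.1%), against 26.8% of exonic and 4.09% of intronic circRNAs.

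Circles shared ends with each other. The 614 circles used 360 distinct lower and 449 distinct upper positions, and 407 shared at least 1 end with another intergenic circle. Grouped by overlap on a strand they formed 226 loci, 167 of them with a single circle. The largest locus, on chromosome 7 from 59276602 to 59905249, held 266 circles and 1629 reads. Within it, 28 circles shared the lower end 59349677, 23 shared 59449384 and 16 shared 59774540. Circles that share an end are not independent members.

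The shared ends lay at fixed distances from the snoRNA genes of Snhg14. In RefSeq the locus carries 133 short RNA genes of 79 bases (median) at a median spacing of 1871 bases, 132 of them snoRNA genes. Next to them lie 70 snoRNA genes of 94 bases (median) at 2527 bases, of which 18 are named for Snord116. The first array contained 192 circles and 979 reads and the second 60 circles and 405 reads. On the first array, 26 of 41 distinct lower ends lay 61 to 67 bases above the nearest gene of the array, and 12 more lay 1502 to 1512 bases above it. At the upper side, 86 of 115 distinct ends lay 239 to 240 bases below the next gene. On the second array all 16 lower ends lay 254 to 257 bases and all 28 upper ends 400 to 405 bases above the nearest gene. A repeat unit is close to its neighbours in sequence, so which copy a back-splice read belongs to is uncertain, and a single circle here may stand for reads of several.

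**Figure D2:**
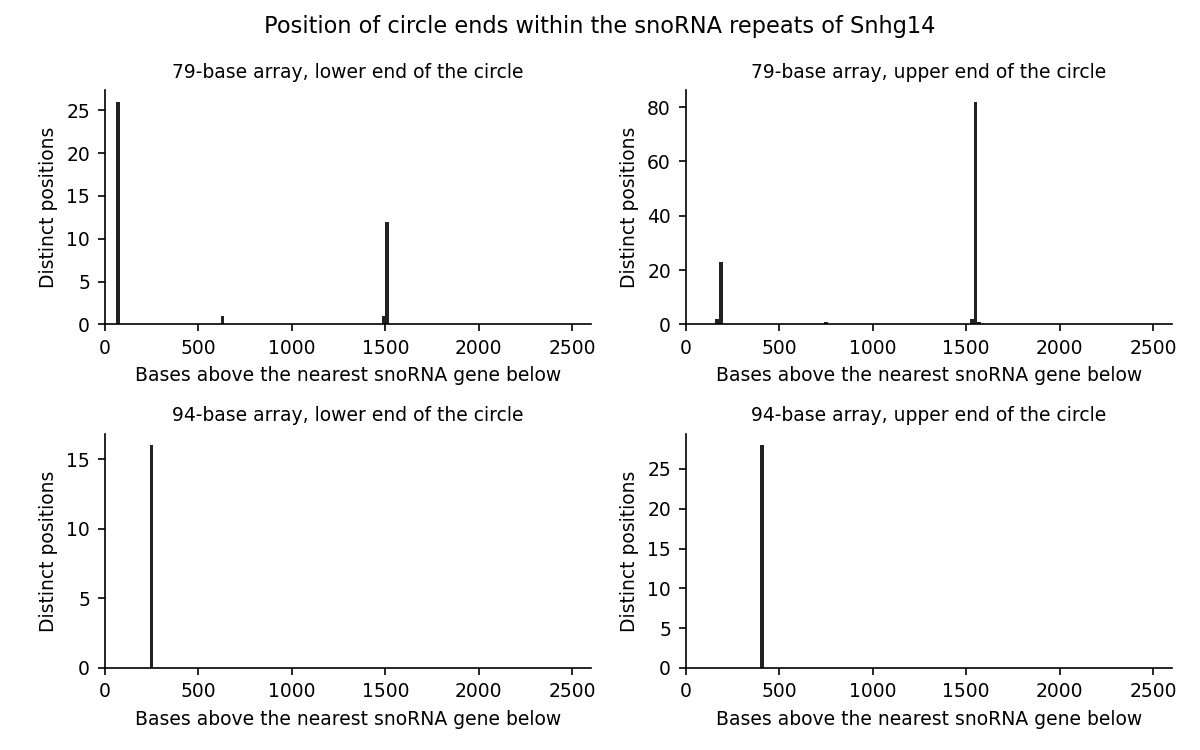
Distance in bases (x axis) from the nearest snoRNA gene lower on the chromosome to each distinct circle end (y axis, number of positions per 20-base bin), for lower and upper ends in the 79-base and 94-base snoRNA arrays. In the 94-base array all 16 lower ends sit at 254 to 257 bases and all 28 upper ends at 400 to 405 bases.

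Back-splice reads on intergenic circRNAs numbered 927, 960 and 1013 in the control libraries and 952, 718 and 746 in the PS_high libraries. All back-splice reads of a library numbered 15658 to 19957. SRPBM is the back-splice count scaled by 1 total per library. These totals ran from 124664700 to 132894000 in controls and from 101405400 to 118514850 in PS_high. They did not overlap between groups, so this measure of depth and the exposure cannot be told apart. Neuronal marker genes summed to 434 to 524 FPKM in controls and 739 to 930 in PS_high, with Snap25 at 134 to 169 against 369 to 611, while Rbfox3 and Syt1 overlapped between groups. The excitatory cortical neuron list of the labelled tissue was detected in every library and summed to 108 to 220 FPKM. Choroid plexus markers ranged from 5.19 to 458 FPKM, with Ttr at 5.02 to 456 and Kcne2 at 0.172 to 1.19, and these ranges overlapped between groups. The part of these markers in the circRNA values was not tested, and in whole tissue fewer cells of a type and less RNA per cell cannot be told apart.

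A limit of the table touches every detection count. The smallest value above 0 on an intergenic circle was 2 reads, and none of 1115 values above 0 was 1. Values of 1 made up 40.6% of those above 0 on exonic circRNAs and 46.7% on intronic ones. A listed 0 can therefore hide a single read. Circles whose host is given as an Ensembl identifier showed the same, with 1 value of 1 among 4535, against 12143 of 25038 for hosts given as symbols.

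Most circles were rare. Of the 614, 227 had 2 reads in all, 395 were listed in 1 library, 89 in 2, and 54, 25, 26 and 25 in 3, 4, 5 and 6 libraries. The 130 circles in at least 3 libraries held 3493 of 5316 reads (65.7%), and the 25 in all 6 held 1688. The 10 circles with most reads held 25.2%. Between 30.8% and 40.6% of the circles of each library occurred in no other. Among the 25 circles in all 6 libraries the coefficient of variation over replicates had a median of 41.1% in controls and 38.4% in PS_high.

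Intergenic circRNAs made up a slightly smaller share of back-splice reads in PS_high, by a difference that no test called. The share was 4.76%, 5.47% and 5.08% in the control libraries and 4.79%, 4.59% and 4.30% in PS_high, a mean of 5.10 ± 0.357 (SD, n = 3) against 4.56 ± 0.246. The groups overlapped, since the first PS_high library stood above the first control. The two-sided exact permutation test gave p = 0.2, and 3 libraries against 3 cannot go below 0.1. The difference of -0.542 percentage points was -0.145 (p = 0.5, exact permutation) without circles that have a near-identical neighbour in another class. It was -0.219 without the 3 highest circles and -0.0437 over circles in at least 3 libraries. For intronic circRNAs the share was 5.03% ± 0.370 against 4.71% ± 0.450 (SD, n = 3; exact permutation p = 0.4).

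The number of circles detected was 207, 193 and 197 in controls and 193, 156 and 169 in PS_high. Means were 199 ± 7.21 and 173 ± 18.8 (SD, n = 3; exact permutation p = 0.2), and the highest PS_high library tied with the lowest control. Thinned to the back-splice reads of the shallowest library, means were 196 ± 6.35 and 171 ± 16.7. The groups then did not overlap, at the smallest p the exact permutation test allows (p = 0.1). A circle thinned to a single read still counted as detected, whereas the listed values hold no single reads. The thinned numbers therefore favour the deeper libraries and do not match depth in full, and no conclusion is drawn from them. Counted by where reads fell, without thinning, 246 circles had reads in control libraries only, 197 in PS_high only and 171 in both.

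Summed SRPBM showed no difference beyond the spread. The sum was 6975, 7689 and 8126 in controls and 8413, 7080 and 6295 in PS_high, so the highest and the lowest library were both of PS_high (7597 ± 581 against 7263 ± 1071, SD, n = 3; exact permutation p = 0.8). For Snhg14 circles alone it was 2002, 2675 and 2447 against 3226, 2682 and 1932 (p = 0.6, exact permutation). The first PS_high library decided the direction there, and without it the difference of means turned from 239 to -67.1 SRPBM. Circles of the 79-base array summed to 1226 ± 244 in controls and 1537 ± 432 in PS_high, and those of the 94-base array to 640 ± 42.4 and 486 ± 119 (SD, n = 3; exact permutation p = 0.4 and 0.2).

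Circles outside Snhg14 and its flank had lower sums in the PS_high libraries, without passing 0.05. They summed to 4568, 4677 and 5407 SRPBM in controls and 4525, 4083 and 3966 in PS_high. The groups did not overlap, and the exact permutation test gave its smallest value (p = 0.1). A single circle, mmu_circ_0001100, made up 833 and 947 SRPBM of control libraries 2 and 3 and 0 of every other library. Without the 18 circles that have a near-identical neighbour in another class, it among them, the sums were 4364, 3732 and 4203 against 4286, 3846 and 3848, and the exact permutation p was 0.9. Over circles in at least 3 libraries the order of the means turned, with 2955 ± 179 SRPBM in controls and 3059 ± 289 in PS_high (SD, n = 3; exact permutation p = 0.6).

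**Figure D3:**
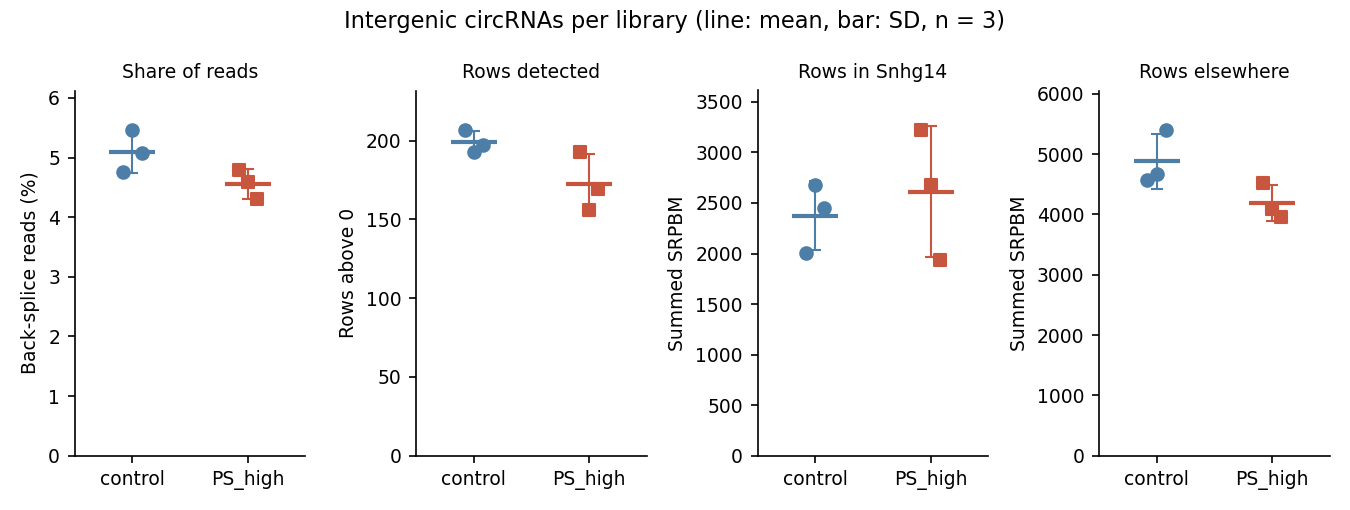
Per library, from left to right: share of back-splice reads on intergenic circRNAs (%), number of intergenic circRNAs above 0, and summed SRPBM of circles in Snhg14 and outside Snhg14 and its flank. Points are libraries, lines means and bars SD (n = 3 per group). The groups overlap or tie in the first 3 panels, and in the last the PS_high libraries (3966 to 4525) lie below the controls (4568 to 5407).

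Single circles were tested where at least 3 libraries had reads, 130 of them, in a fit of all 3275 circRNAs that passed that filter. No intergenic circle passed an adjusted p of 0.05 in edgeR's quasi-likelihood test with Benjamini-Hochberg adjustment, and 1 of 3275 circRNAs did (0.0305%). Without adjustment, p was under 0.05 for 9 of 130, or 6.92%, against 4.95% of all circRNAs tested. Of these 9, 8 had passed the filter through the libraries of 1 group alone, and among the circles with reads in both groups it was 1 of 122 (0.820%), against 28 of 3134 (0.893%). DESeq2 and limma called none of the 130 either, with 2 and 9 under 0.05 before adjustment. The log2 fold change (PS_high over control) was positive for 60 circles and negative for 70, with a median of -0.12 beside 0.15 over all circRNAs tested. With TMM library factors these medians were -0.25 and -0.0043, and 56 circles were positive and 74 negative. The direction turned over the 51 circles in at least 5 libraries, with 29 positive, 22 negative and a median of 0.20 beside 0.17 over all circRNAs in at least 5. It also turned without PS_high library 3 (68 positive, 62 negative, median 0.06) and without control library 3 (66 and 64, median 0.0099). Groups did not overlap for 4 circles higher and 11 lower in PS_high (3.08% and 8.46%), against 6.44% and 4.52% of all circRNAs tested, and 8 of these 15 were listed in 1 group alone. The 4 higher ones, named after their values were seen, were mmu_circ_0002092, circRNA7483, circRNA7460 and mmu_circ_0011586, none with more than 4 reads in a library.

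The most abundant circle was circRNA4262, on chr13:64243634-64248499 (minus strand) within Cdc14b, a dual-specificity phosphatase of the cell cycle. It had 64, 63 and 82 reads in controls and 90, 65 and 64 in PS_high, or 548 ± 95.8 against 659 ± 129 SRPBM (SD, n = 3). The groups overlapped. Its log2 fold change was 0.27 (SE 0.29) and edgeR's adjusted p was 0.976. Its upper end is the one whose sequence is printed first above. The circle shares an end with 1 other intergenic circle and with 4 circRNAs of other classes in Cdc14b. The linear Cdc14b gene stood at 26.4 ± 8.44 against 33.7 ± 3.78 CPM (counts scaled to a common library total; SD, n = 3), with edgeR's adjusted p at 0.9997.

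Nrg1, which encodes the neuregulin ligand of ErbB receptors, held 7 intergenic circles and 252 reads. Its circRNA4428 (chr8:32441010-32503325) had 28, 18 and 14 reads in controls and 19, 30 and 18 in PS_high, and mmu_circ_0014781 (chr8:32501281-32508736) had 15, 9 and 21 against 12, 11 and 13. Both overlapped between groups. Log2 fold changes were 0.39 (SE 0.42) and -0.12 (SE 0.50), and edgeR's adjusted p was 0.976 for each. Leaving out 1 library moved the first to 0.04 (without PS_high library 2) or 0.67 (without control library 1). A transcript assembled inside a Nrg1 intron overlapped both circles, at 7.31 to 10.2 FPKM in controls and 7.55 to 9.29 in PS_high.

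The longest circle by span, circRNA4367, covers 197768 bases of Snhg14 on chr7:59488404-59686171. It had 12, 29 and 30 reads in controls and 9, 26 and 17 in PS_high. A low library occurred in both groups, so they overlapped, and its log2 fold change was -0.24 (SE 0.45; adjusted p = 0.976 in edgeR). The circle mmu_circ_0014301 lies in the same host on chr7:59940820-59973650. It had 12, 9 and 6 reads in controls and 41, 8 and 9 in PS_high, so that a single PS_high library was high and the others lay among the controls. Its log2 fold change was 1.28 (SE 0.55), with an unadjusted p of 0.0235 and an adjusted p of 0.826 in edgeR, and without PS_high library 1 the change was 0.14. The Snhg14 gene was at 3000 ± 297 CPM in controls and 3017 ± 385 in PS_high (SD, n = 3), with a log2 fold change of 0.01 (SE 0.15). The shortest span tested, circRNA4390, covers 147 bases of Snhg14 and had 5, 0 and 0 reads against 0, 4 and 2.

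The remaining circles of the 10 with highest mean SRPBM lay in different genes. Nlgn1, a postsynaptic adhesion protein that binds neurexins, held mmu_circ_0010604 (chr3:26133242-26135389), with 18, 7 and 17 reads in controls and 17, 9 and 10 in PS_high. Dlg2, a scaffold of the postsynaptic density, held circRNA4415 (chr7:91626329-91626813), with 14, 7 and 0 against 11, 8 and 15. In both cases the groups overlapped, and the 0 in the third control could hide 1 read. The long non-coding RNA gene 6530403H02Rik held mmu_circ_0010404 (chr3:120769159-120799747), with 0, 22 and 14 against 13, 11 and 16 reads. The circle mmu_circ_0000481 (chr13:83872656-83884235) overlaps a transcript of the non-coding gene C130071C03Rik and had 14, 11 and 13 against 14, 8 and 4. That host gene was at 186 ± 18.2 against 106 ± 53.7 CPM (SD, n = 3), with a log2 fold change of -0.81 (SE 0.32) and an adjusted p of 0.9997 in edgeR. Its most abundant tested transcript over the circle did not share this lower level. That transcript was at 3.14, 2.78 and 2.44 FPKM in controls and 3.29, 1.95 and 2.98 in PS_high (log2 fold change -0.002, SE 0.29). None of these 4 circles passed the test, with edgeR adjusted p-values from 0.976 to 0.990.

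**Figure D4:**
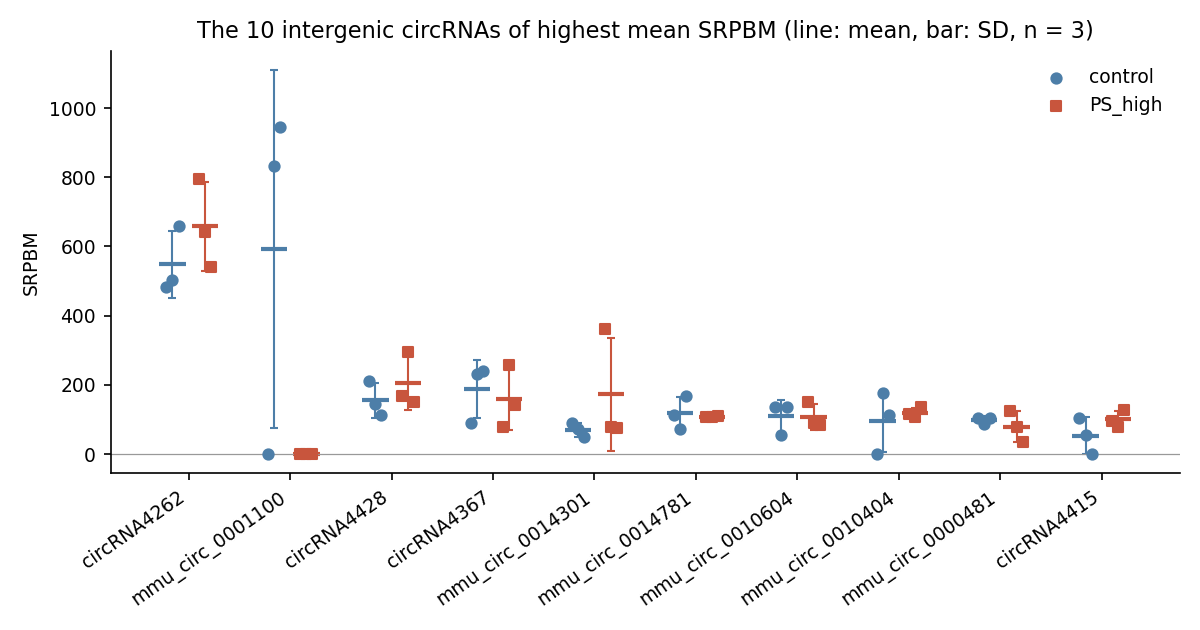
SRPBM (y axis, linear) in each library for the 10 intergenic circRNAs of highest mean SRPBM (x axis), control in blue circles and PS_high in red squares, with group means (lines) and SD (bars, n = 3). The groups overlap for each of the 10, and mmu_circ_0001100 is at 0 in 4 libraries.

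The second most abundant circle, mmu_circ_0001100, lies on chr2:158382504-158383163 (plus strand) in Snhg11, a neuronal snoRNA host gene. It had 0, 104 and 118 reads in controls and 0 in all PS_high libraries, and with reads in only 2 libraries it was not tested. An exonic circRNA of the same gene, circRNA4544, has the same upper end and a lower end 1 base away. It had 79, 0 and 0 reads in controls and 77, 85 and 106 in PS_high, so each library lists 1 of the pair and not the other. Added together they gave 79, 104 and 118 against 77, 85 and 106 reads. With entries within 10 bases merged, which was chosen after the data were seen, the log2 fold change was 0.02 (SE 0.26; adjusted p = 0.976 in edgeR). Without the filter on libraries the entry alone had a fitted log2 fold change of -9.14 and an adjusted p of 3.11e-29 in edgeR. Linear Snhg11 was at 1606 ± 31.2 and 1605 ± 227 CPM (SD, n = 3).

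In all, 18 intergenic circles had a neighbour in another class within 10 bases at both ends, in 21 pairs, and in 15 of these no library listed both. A pair in Cdc14b alternated in the same way, with circRNA7394 at 0, 9 and 13 reads against 6, 6 and 0 and its exonic neighbour circRNA4479 at 8, 0 and 0 against 0, 0 and 10. Of these 18 circles, 5 were among the 130 tested, namely circRNA10049, circRNA4296, circRNA4422, circRNA7394 and circRNA7414. After merging, none of the 139 units that hold an intergenic circle passed the adjusted threshold in edgeR, and 10 had an unadjusted p under 0.05.

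**Figure D5:**
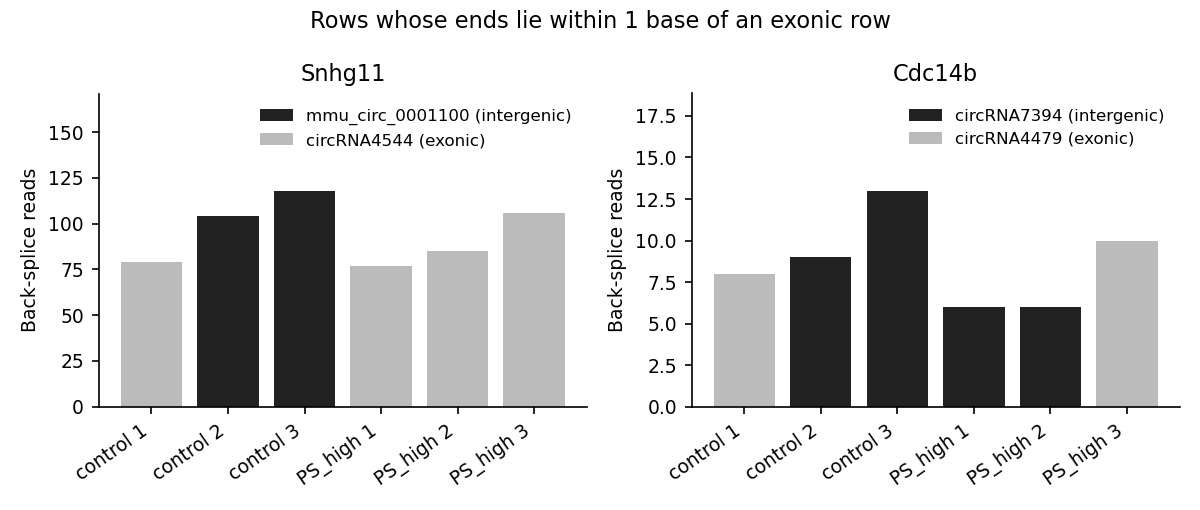
Back-splice reads (y axis) in each library (x axis) for an intergenic circRNA (black) and an exonic one (grey) whose ends lie within 1 base, stacked, in Snhg11 and Cdc14b. Every library has a single colour, and the Snhg11 sums are 79, 104 and 118 in controls and 77, 85 and 106 in PS_high.

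Few circles were listed in all libraries of a single group. Those with reads in all 3 control libraries and in no PS_high library numbered 7, each with 6 to 14 reads. The reverse held for 1, mmu_circ_0002092. The circle with most reads of the 7, circRNA4432 (chr9:8689400-8754394), had 4, 4 and 6 reads against 0, 0 and 0. With 3 reads over the PS_high group put in as a floor, it was 4.06-fold lower there. Such a ratio gives a scale only and makes no allowance for the sampling of so few reads. In Snhg14, circRNA4383 had 6, 2 and 2 reads and circRNA4369 had 3, 2 and 4, both against 0. On the same floor they were 2.90-fold and 2.61-fold lower. Another Snhg14 circle, circRNA4380, had 4, 2 and 3 against 0. Of these, circRNA4380 and circRNA4383 share the lower end 59774540. In Hivep2, a zinc finger transcription factor gene, mmu_circ_0002092 (chr10:14066583-14086082) had 0, 0 and 0 reads against 4, 3 and 3. With 3 reads over the control group as the floor it was 3.83-fold higher in PS_high. Each of these 8 circles had fewer than 15 reads and met the filter of 3 libraries only through the group in which it was listed, so its difference follows from the filter and no p is read from it. Such circles were 6.15% of the 130 and 4.31% of all circRNAs tested.

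Among circles with a positive fitted change, the next after mmu_circ_0002092 and mmu_circ_0014301 were mmu_circ_0004066 and circRNA7418. On chr12:5451681-5452852, mmu_circ_0004066 had 3, 7 and 3 reads in controls and 13, 2 and 15 in PS_high. A low library in PS_high made the groups overlap, and its log2 fold change was 1.34 (SE 0.74; unadjusted p = 0.0784). In Lingo2, a leucine-rich repeat protein gene of neurons, circRNA7418 had 0, 2 and 0 reads against 8, 4 and 0, with a log2 fold change of 2.57 (SE 1.55; unadjusted p = 0.105). The 25 circles in all 6 libraries had log2 fold changes from -1.13 to 1.34 with a median of -0.02. The groups did not overlap for 1 of them, circRNA4288, named here after its values were seen, which had 12, 8 and 6 reads in controls and 3, 4 and 3 in PS_high (log2 fold change -1.13, SE 0.80, unadjusted p = 0.163 in edgeR).

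Linear transcripts that overlap the circles did not pass the test in edgeR. Of 1931 such isoforms 1336 were abundant enough to test, and none passed the adjusted threshold, against 3 of 69333 isoforms in all (0.00433%). Before adjustment 48 of 1336 had a p under 0.05 (3.59%, against 3.58% of all isoforms), 28 higher and 20 lower. Their median log2 fold change was 0.01 beside -0.01 over all isoforms. DESeq2 called 18 of the 1236 to which it gave an adjusted p (1.46%), against 978 of 65836 isoforms in all (1.49%), and 5 of the 18 were assembled Snhg14 isoforms with log2 fold changes of both signs. An isoform can be listed at 0 in single libraries, such as the Snhg14 isoform over circRNA4380, which stood at 45.9 and 28.8 FPKM in 1 library of each group and at the table's floor of 0.0001 FPKM in the others.

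Genes that act on circRNA formation and turnover were read from a list of 30, of which 28 were abundant enough to test. None passed the adjusted threshold in edgeR, against 5 of 20272 genes (0.0247%), and 1 had an unadjusted p under 0.05 (3.57%, against 2.73% of all genes). That gene was Adarb1, an RNA-editing enzyme that acts on double-stranded RNA. Its level was 163 ± 20.4 CPM in controls and 74.6 ± 19.0 in PS_high (SD, n = 3), with a log2 fold change of -1.13 (SE 0.22; unadjusted p = 0.00105, adjusted p = 0.789 in edgeR), and DESeq2 called it (adjusted p = 0.00993), as it did 47 of 20219 genes (0.232%). Its paralogue Adar was at 113 ± 5.43 against 135 ± 33.8, and the helicase Dhx9 at 184 ± 2.28 against 203 ± 13.9. Among 13 factors that promote circularisation, 10 had a positive and 3 a negative fitted change, and none passed. Their median log2 fold change was 0.14, beside -0.0075 over all genes. The tilt was not particular to them. The 3 genes that oppose circularisation also had a median of 0.14, with 2 positive and 1 negative. The 9 turnover genes had a median of 0.03, with 6 positive and 3 negative. Over all 28 genes the median was 0.08, with 20 positive and 8 negative. Qk, a circularisation factor of glia, was at 940 ± 199 against 967 ± 144, and the neuronal factor Nova2 at 73.7 ± 23.7 against 106 ± 25.7. In the turnover group of 9, Dis3, an exosome nuclease, was at 32.0 ± 1.30 against 26.3 ± 1.52 (log2 fold change -0.28, SE 0.14, unadjusted p = 0.0872 in edgeR). G3bp1 of that group was at 59.2 ± 2.16 against 64.1 ± 2.18.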

How the data were processed

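The deposited circRNA table gives, per the file headers, a count of back-splice reads and a signal, SRPBM, per library. In these values SRPBM equals the count scaled by 1 total per library. The deposited linear table gives FPKM and an estimated count per isoform. Per the submitters' processing notes, HISAT2, StringTie and TopHat were used, and neither a version nor a genome build is given in the sources used here. Positions matched GRCm38.p6 for 201 of 204 snoRNA genes inside Snhg14 and 919 of 1146 small nuclear RNA genes, and gene spans and promoter windows of that build (RefSeq) were used on this basis.

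The 130 intergenic circRNAs above 0 in at least 3 of 6 libraries were tested within all 3275 such circRNAs in edgeR 4.0.16 under R 4.3.3 (quasi-likelihood, two-sided), taking the totals behind SRPBM as library sizes. Isoforms and genes (estimated counts, as whole numbers, summed per symbol) with a mean of at least 0.5 FPKM were tested with TMM factors. Adjusted p-values are Benjamini-Hochberg over all features tested, threshold 0.05. Sums, shares and numbers were compared by exact permutation. Alternatives included DESeq2 1.42.0 and limma 3.58.1 on log2(SRPBM + 1). The procedures were tested on simulated data, whose spread was set and not taken from the real counts. There the circRNA fit recovered 29 of 100 circRNAs changed 4-fold and 73 of 100 changed 16-fold. A circle that did not pass may therefore still differ. Named circRNAs were the 10 of highest mean SRPBM, the 4 of smallest p in each direction, the longest and shortest tested, and up to 3 per group listed in all its libraries alone. The members and lists were chosen with earlier results of these data known. Of sequences, only circle edges inside RefSeq promoter windows were read.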

Additional observations from a re-analysis of the deposited data

How the results depend on the processing

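The count of intergenic circRNAs past the adjusted threshold was 0 in edgeR and became 1 without the filter on libraries and 1 with at least 10 reads in all, each time mmu_circ_0001100, whose log2 fold change was 0.02 with near-identical entries merged. DESeq2 called 18 overlapping linear isoforms (1.46%, against 1.49% of all isoforms) and 1 gene of the formation and turnover list, where edgeR called 0. The difference in summed SRPBM, -334, turned to 262 over circles in at least 3 libraries, to 99 without the 3 highest and to 252 without circles that have a neighbour in another class. Leaving out 1 library at a time gave -909 to 150, and the sign turned without the third PS_high library. For Snhg14 the same gave -67.1 to 580, and outside Snhg14 and its flank the difference was 104 over circles in at least 3 libraries. The median span was 22438 bases over circles in at least 3 libraries and 14906 without the circles from Snhg14 to Ndn. None of these causes was tested. For single circles, the log2 fold change ran over left-out libraries from 0.04 to 0.67 for circRNA4428, 0.14 to 1.64 for mmu_circ_0014301, 0.32 to 1.81 for circRNA4415, 1.68 to 5.15 for circRNA7418, 0.11 to 0.42 for circRNA4262, -0.74 to 0.09 for circRNA4367, -0.37 to 0.22 for mmu_circ_0014781, -0.34 to 0.17 for mmu_circ_0010604, -0.27 to 1.1 for mmu_circ_0010404, -0.83 to 0.03 for mmu_circ_0000481 and -0.53 to 4.19 for circRNA4390. That of mmu_circ_0010604, -0.02, was 0.04 in limma with either pseudocount and 0.02 under the replicate block.

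The labels do not say that replicate numbers pair the libraries, and the values do not settle it. Deviations from the group means correlated over genes at 0.156, 0.0894 and 0.0598 for same-numbered libraries. For libraries of different number they correlated at -0.0996 to 0.025. Over circRNAs all such correlations lay between -0.0084 and 0.011. With the number as a replicate block, 0 intergenic circRNAs were called. The block leaves the mean differences in sum, share and number (-334, -0.542 percentage points and -26.3) unchanged by arithmetic. Their exact sign-flip p-values were 0.75, 0.5 and 0.25, and 3 sign flips cannot go below 0.25. Merged entries, the removal of neighbours, detection at 3 reads and both subsets for span were chosen after the data were seen. Depth limits single circles, with 6 to 14 reads behind the circles listed in the 3 control libraries alone and a median SE of 1.42 log2 over the 130 tested.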
